A study of Homo sapiens with 2 samples.

Results

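The APOBEC3 genes encode cytidine deaminases, enzymes that turn cytosine into uracil in single-stranded DNA. They lie side by side on the plus strand of chromosome 22. The members were chosen by symbol, APOBEC3A, APOBEC3B, APOBEC3C, APOBEC3D, APOBEC3F, APOBEC3G and APOBEC3H, and transcript values were summed per gene. Of these 7 genes, 6 had rows by that symbol, holding 10 transcripts, among 25240 genes with 37839 transcripts in all. APOBEC3A had no row under its symbol. The study compared T47D cells, a luminal A breast cancer cell line, carrying a hairpin against RON (shRON) with T47D cells carrying a non-targeting hairpin (shNT). RON is the receptor tyrosine kinase encoded by MST1R. Both cultures had been transduced, selected in 5 ug/mL puromycin, maintained in 1 ug/mL, and grown in high-glucose DMEM with 10% serum. There was 1 library per group, so every difference describes these 2 libraries, without a replicate check and without a test. The file name of the control calls its cells wild type, whereas the treatment label gives a non-targeting hairpin, and the label was followed.

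APOBEC3 enzymes act in innate immunity, where they mutate the DNA copies of retroviruses and hold back retrotransposons. APOBEC3G, APOBEC3F, APOBEC3D and APOBEC3H are packaged into HIV-1 particles that lack the viral Vif protein. APOBEC3A, best known from myeloid cells, is strongly induced by interferon, and APOBEC3B, a nuclear enzyme, is expressed in many breast cancers and cell lines. Both are linked to C-to-T mutations in tumour genomes. Uracil that they leave in DNA is removed by base excision repair, which begins with a uracil glycosylase such as UNG.

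Each enzyme carries either a single or a doubled zinc-binding deaminase domain, in which a histidine, a glutamate and a pair of cysteines form a conserved motif. In the coding sequences of the GENCODE annotation of GRCh37, the assembly also named hg19, which the submitters' processing notes give, this motif was found once in APOBEC3A, APOBEC3C and APOBEC3H. It was found in 2 copies in APOBEC3B, APOBEC3D, APOBEC3F and APOBEC3G. The coding sequence around the motif is shown for 6 genes because it bears on how far reads can be assigned to a member. Capitals mark the codons of the histidine, the glutamate and both cysteines.
APOBEC3B N-terminal domain: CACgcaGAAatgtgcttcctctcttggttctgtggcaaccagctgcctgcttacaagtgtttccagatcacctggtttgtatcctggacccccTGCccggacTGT
APOBEC3F N-terminal domain: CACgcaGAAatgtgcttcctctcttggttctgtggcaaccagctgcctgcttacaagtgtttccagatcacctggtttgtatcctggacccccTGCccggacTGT
APOBEC3B C-terminal domain: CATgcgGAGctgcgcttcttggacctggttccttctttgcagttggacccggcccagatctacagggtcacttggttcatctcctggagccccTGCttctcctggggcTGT
APOBEC3A sole domain: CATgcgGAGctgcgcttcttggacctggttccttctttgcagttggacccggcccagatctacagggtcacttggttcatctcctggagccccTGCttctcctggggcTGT
APOBEC3F C-terminal domain: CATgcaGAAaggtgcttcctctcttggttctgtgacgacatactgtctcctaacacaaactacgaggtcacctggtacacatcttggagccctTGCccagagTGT
APOBEC3D C-terminal domain: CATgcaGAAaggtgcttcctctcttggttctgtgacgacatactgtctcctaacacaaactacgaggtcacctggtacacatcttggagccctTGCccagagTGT
APOBEC3C sole domain: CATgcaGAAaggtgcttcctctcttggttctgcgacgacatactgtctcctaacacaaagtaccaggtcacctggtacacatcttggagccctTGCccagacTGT
APOBEC3G C-terminal domain: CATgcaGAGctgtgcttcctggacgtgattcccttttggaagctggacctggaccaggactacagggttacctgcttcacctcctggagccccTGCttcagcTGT

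The C-terminal stretch of APOBEC3B, at chr22:39387370-39387480 in exon 6, was identical to that of APOBEC3A, at chr22:39357425-39357535 in exon 3, over all 111 bases. The N-terminal stretch of APOBEC3B, at chr22:39381838-39381942 in exon 3, was identical to the N-terminal stretch of APOBEC3F, at chr22:39440967-39441071, over 105 bases. The C-terminal stretch of APOBEC3F, at chr22:39448100-39448204, was identical to that of APOBEC3D, at chr22:39427720-39427824. APOBEC3C, at chr22:39413792-39413896, differed from that shared stretch at 4 of 105 bases. The C-terminal stretch of APOBEC3G, at chr22:39482317-39482421, differed from that of APOBEC3F at 46 of 105 bases. All of these stretches lie on the plus strand of chromosome 22.

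Over the aligned part of their coding sequences, APOBEC3A and APOBEC3B were identical at 94.7% of 571 bases. APOBEC3B matched APOBEC3D at 91.6% of 610 bases and APOBEC3F at 91.3% of 606 bases. APOBEC3H was the least similar to APOBEC3B, at 73.3% of 225 bases. Windows of 100 bases were then taken along the representative transcript of each gene and looked up, without mismatch, in every annotated transcript of the other 6. Of 1491 windows of APOBEC3B, 306 (20.5%) also occurred in another member, most of them in APOBEC3A. For APOBEC3F the count was 262 of 4397 (5.96%), for APOBEC3D 223 of 2416 (9.23%) and for APOBEC3G 107 of 1465 (7.30%). No window of APOBEC3C or APOBEC3H, of 2545 and 930, was shared. A read pair that lies wholly within shared sequence cannot be assigned to a member by sequence alone. The sources used here do not say how the authors' processing divided such reads. A read pair that reaches past shared sequence into differing bases can be assigned, so these percentages are not shares of unassignable reads.

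**Figure D1:**
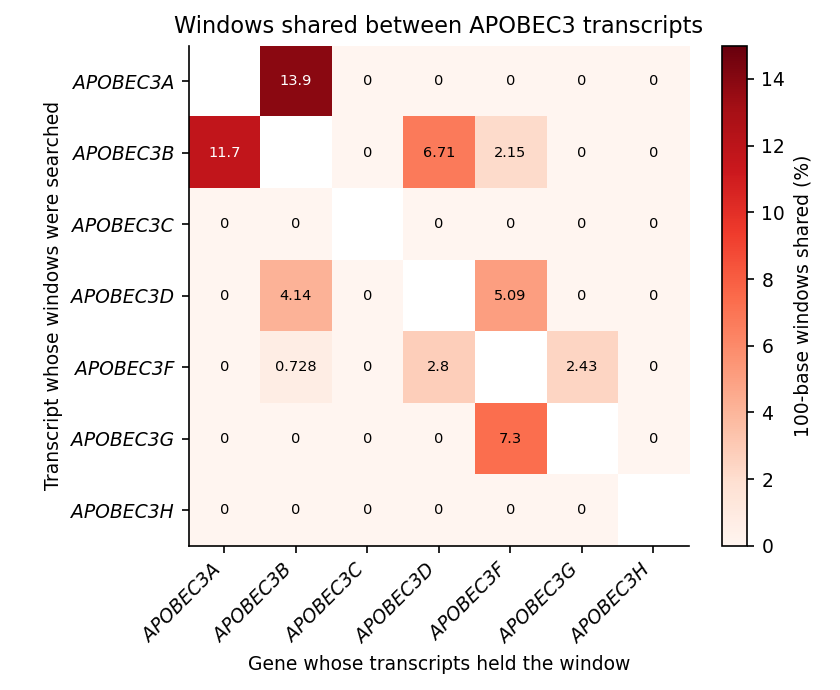
Share of 100-base windows of each APOBEC3 transcript (rows) found without mismatch in the transcripts of each other member (columns), in percent, from the GENCODE annotation of GRCh37. APOBEC3A and APOBEC3B share 13.9% and 11.7% of their windows, while APOBEC3C and APOBEC3H share none.

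The hairpin's target MST1R stood at 9.10 FPKM in shRON and 12.1 FPKM in shNT. FPKM counts fragments scaled to transcript length and library size, so levels of different genes can be compared. The ratio of 0.749 had an approximate 95% counting interval of 0.676 to 0.830, and 82.3% of all measured genes had a higher log2 ratio. The libraries rested on about 11900000 estimated fragments in shRON and 12500000 in shNT. A gene was counted as measured at 1 FPKM or more in at least 1 library, which 12507 genes met. Log2 ratios set shRON over shNT after 1 was added to each FPKM, which makes them smaller than the true ratio for low genes. Their median over the measured genes was 0.04, with quartiles at -0.25 and 0.30. All 10 luminal epithelial markers were measured, and 3 were at least 1.5-fold lower in shRON, beside 8.88% of all measured genes. ESR1 was at 23.7 FPKM in shRON and 36.7 in shNT, PGR at 35.1 in shRON and 76.7 in shNT, and CDH1 at 100.1 in shRON and 163 in shNT. Not all luminal markers were lower, since 4 of the 10 had a log2 ratio above 0. These were GATA3, at 269 FPKM in shRON and 223 in shNT (0.27), XBP1 (0.08), EPCAM (0.05) and FOXA1 (0.01). In bulk RNA, fewer cells with a transcript and less of it per cell cannot be told apart.

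By listed FPKM, APOBEC3B was the most abundant member, and it differed little between the libraries. It stood at 19.5 FPKM in shRON and 18.6 FPKM in shNT, from an estimated 449.7 fragments in shRON and 446 in shNT. Both values lay in the upper part of the expression range, above 70.8% of the measured genes in shRON and 70.3% in shNT. The log2 ratio was 0.06 and the ratio of FPKM 1.05, with an approximate 95% counting interval of 0.917 to 1.20. That interval includes 1 and ends below the 1.5-fold used here to count a gene as higher. Of all measured genes, 47.6% had a higher log2 ratio. The row holds 1 transcript, NM_004900.3, at chr22:39378405-39388783, with the status OK in both libraries. The annotation places an antisense noncoding gene, APOBEC3B-AS1, at chr22:39387564-39394214, across the end of APOBEC3B. The sources used here do not say whether the libraries kept strand, so reads of both genes could not be told apart where they overlap.

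APOBEC3F, which restricts Vif-deficient HIV-1, was the other measured member. It stood at 2.0 FPKM in shRON, with a counting interval of 1.65 to 2.40, and at 1.70 FPKM in shNT, with an interval of 1.37 to 2.08. The log2 ratio was 0.15 and the ratio of FPKM 1.18, with an approximate interval of 0.889 to 1.56 from an estimated 116 fragments in shRON and 94.2 in shNT. The interval includes 1, and the depth does not separate an equal level from a difference of 1.5-fold. The gene was low in both libraries, above 12.9% of the measured genes in shRON and 11.4% in shNT.

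APOBEC3F had 2 transcripts, and nearly all of its fragments lay on the longer one. The full-length transcript NM_145298.5, at chr22:39436673-39451977, was at 1.58 FPKM in shRON and 1.20 in shNT, from an estimated 111 fragments in shRON and 87.9 in shNT. The short transcript NM_001006666.1 ends at base 39440428, before either stretch that holds the motif, and was at 0.425 FPKM in shRON and 0.498 in shNT. These values rest on an estimated 5.14 fragments in shRON and 6.25 in shNT, too few to give its difference a direction. The short form made up 21.3% of the gene's FPKM in shRON and 29.3% in shNT. Cufflinks divides fragments between overlapping transcripts by a model, and no interval of that division was given. In both libraries the ratio of deposited coverage to FPKM of APOBEC3F was low. It reached 80.9% of the highest ratio in shRON and 75.4% in shNT, and at most 1.77% of transcripts above 0.5 FPKM in shRON and 0.590% in shNT had a lower ratio. The lowest ratios in each library were read as 1 counted read per fragment and the highest as both reads of the pair. For APOBEC3B it was 90.4% of the highest ratio in shRON and 90.8% in shNT. Whether sequence shared with other members has a part in this was not tested.

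The remaining 4 members with a row stayed under 1 FPKM in both libraries. APOBEC3G, the best-studied of the HIV-1 restricting members, was at 0.165 FPKM in shRON, from an estimated 4.53 fragments, and was listed at 0 in shNT. APOBEC3D was at 0.0555 FPKM in shRON, from 2.09 fragments, and was listed at 0 in shNT. APOBEC3H was listed at 0 in shRON and at 0.0695 FPKM in shNT, from 1.13 fragments over its 4 transcripts. No fold and no direction was drawn for these genes, since each was listed at 0 in 1 library and rested on few fragments in the other. A count of 3 fragments would have given 0.105 FPKM for APOBEC3G and 0.0770 for APOBEC3D in shNT. For APOBEC3H in shRON it would have given 0.175 FPKM.

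APOBEC3C, a member with a sole domain that is found in many tissues, was listed at 0 in both libraries with the status OK. A count of 3 fragments would have given 0.177 FPKM in shRON and 0.171 in shNT, and such limits cover counting error only. Its row, at chr22:39410265-39414843, covers 1127 bases, and APOBEC3C shares no 100-base window with another member. An exact 0 in these tables can be a failed estimate, as for DDX17 in shNT, where the status was FAIL. Elsewhere in the tables, 10 genes whose transcripts were all OK were listed at 0 in 1 library and at 5 FPKM or more in the other. Whether a 0 with the status OK, there or for APOBEC3C, is a failed estimate was not tested.

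APOBEC3A had no row by its symbol, but 3 transcripts under the identifier LOC100506375 lie at chr22:39348756-39359188, within the annotated span of APOBEC3A (chr22:39348746-39359189). These rows were looked up after the members' values had been seen and are not among the members. They summed to 0.419 FPKM in shRON, from an estimated 9.07 fragments, and 0.0539 FPKM in shNT, from 1.06 fragments. The ratio of 7.77 had an approximate counting interval of 1.13 to 357, which is wide because so few fragments lie behind it. The transcripts that held the signal differed, XM_003118814.1 at 0.418 FPKM in shRON and XM_003118816.1 at 0.0539 FPKM in shNT. APOBEC3A shares 13.9% of its windows with the far more abundant APOBEC3B. Fragments that lie wholly within such shared sequence cannot be assigned to either gene by sequence alone.

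**Figure D2:**
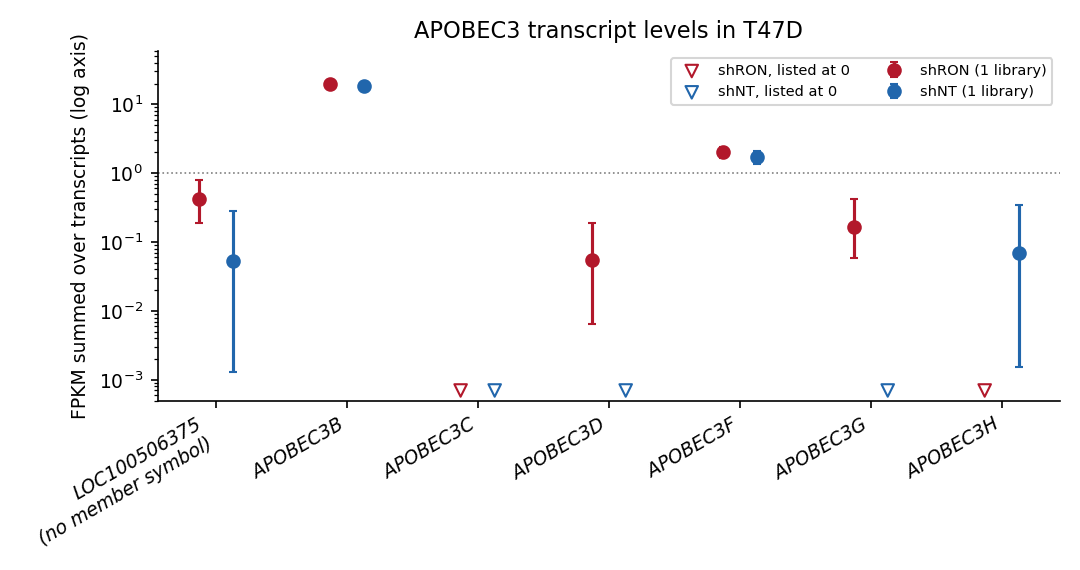
FPKM of each APOBEC3 gene and of LOC100506375, summed over transcripts, on a log axis, in the shRON library (red) and the shNT library (blue). Bars are approximate 95% counting intervals (Poisson), open triangles mark genes listed at 0, and the dotted line marks 1 FPKM. APOBEC3B, at 19.5 FPKM in shRON and 18.6 in shNT, and APOBEC3F, at 2.0 FPKM in shRON and 1.70 in shNT, are the members above the line.

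In shRON the order of levels was APOBEC3B, APOBEC3F, APOBEC3G and APOBEC3D, and in shNT it was APOBEC3B, APOBEC3F and APOBEC3H. The other members with a row were listed at 0, and APOBEC3A had no row. The counting intervals of APOBEC3B, 17.8 to 21.4 FPKM in shRON and 17.0 to 20.5 in shNT, stood clear of those of APOBEC3F. In shRON, APOBEC3G (interval 0.0590 to 0.424 FPKM) and APOBEC3D (0.00645 to 0.192 FPKM) overlapped. APOBEC3B was 9.75 times as abundant per length as APOBEC3F in shRON and 11 times in shNT. It took 89.8% of the family's summed FPKM in shRON and 91.3% in shNT. In these shares and in the family sum, APOBEC3C counts at its listed 0, and APOBEC3A, which had no row, is left out. The family summed to 21.7 FPKM in shRON and 20.4 in shNT, a ratio of 1.06 with an approximate interval of 0.945 to 1.20.

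Neither measured member was 2-fold or 1.5-fold higher or lower. Over all 12507 measured genes, 3.37% were at least 2-fold higher, 2.18% at least 2-fold lower, 9.99% at least 1.5-fold higher and 8.88% at least 1.5-fold lower in shRON. With only 2 measured members, a count of 0 is close to what these shares give. The members' median log2 ratio of 0.11 stood beside 0.04 over all measured genes, and was -0.07 when the median of the neighbouring genes was subtracted.

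Other retrovirus and retrotransposon restriction factors were mostly higher in shRON. All 14 were measured, 8 were at least 1.5-fold higher and 1 lower, with a median log2 ratio of 0.81. By the same 1.5-fold limit, 9.99% of all measured genes stood higher in shRON and 8.88% stood lower. Their median log2 ratio was 0.04. MX2, which blocks nuclear entry of HIV-1, was at 38.1 FPKM in shRON and 2.32 in shNT (log2 ratio 3.55). TRIM22, an antiviral ubiquitin ligase, was at 23.6 FPKM in shRON and 3.17 in shNT (2.56). IFI16, a nuclear DNA sensor, was at 6.95 FPKM in shRON and 1.41 in shNT (1.72). SAMHD1, which depletes the nucleotides needed for reverse transcription, was at 73.5 FPKM in shRON and 34.3 in shNT (1.08). The counting interval of the FPKM ratio ran from 2.02 to 2.27 for SAMHD1, against 0.917 to 1.20 for APOBEC3B and 0.889 to 1.56 for APOBEC3F. Not all factors were higher: SERINC3, at 68.5 FPKM in shRON and 72.2 in shNT (-0.08), stood near equality, as APOBEC3B did. SLFN11 was the lower one on this scale, at 1.19 FPKM in shRON and 2.65 in shNT (-0.74). SERINC5, at 4.55 FPKM in shRON and 7.16 in shNT (-0.56), had an FPKM ratio of 0.636 with a counting interval of 0.564 to 0.717. The count of lower factors was 2 with a pseudocount of 0.1 or with the median of all genes set to 0, and 0 with a pseudocount of 5 or a minimum of 5 FPKM.

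Genes that carry interferon signals, to which several APOBEC3 genes respond, were mostly higher. Of 13 genes from the interferon receptors to the STAT and IRF factors, all measured, 10 were at least 1.5-fold higher and 0 lower. The shares over all measured genes were 9.99% higher and 8.88% lower. The list median log2 ratio was 0.78, and 1 gene had a log2 ratio below 0. IRF1 was at 10.8 FPKM in shRON and 2.82 in shNT (log2 ratio 1.62), and STAT2 was at 100.3 FPKM in shRON and 44.5 in shNT (1.15). The receptor gene IFNAR2 was at 3.26 FPKM in shRON and 1.13 in shNT (1.00). With a pseudocount of 5 the count of higher genes was 6. Of the genes of the NF-kB and protein kinase C route, through which APOBEC3B can be induced, 10 of 12 were measured. RELB, at 9.55 FPKM in shRON and 3.05 in shNT (1.38), and NFKB1, at 9.87 FPKM in shRON and 5.68 in shNT (0.70), were at least 1.5-fold higher and 0 were lower. The shares over all measured genes, 9.99% higher and 8.88% lower, apply here too. Of the protein kinase C genes, PRKCD was measured, at 9.78 FPKM in shRON and 7.81 in shNT (0.29). PRKCA, at 0.454 FPKM in shRON and 0.829 in shNT, was not counted as measured. Its FPKM ratio was 0.548, with a counting interval of 0.396 to 0.760. PRKCB was listed at 0 in shRON and at 0.00684 FPKM in shNT. Of the 10 measured genes of the route, 4 had a log2 ratio below 0, and the median was 0.29. Repression by the DREAM complex and by E2F and RB proteins restrains APOBEC3B. Of 15 genes listed for it, not all of them repressors, 12 had a log2 ratio below 0. The list median of -0.24 stood beside 0.04 over all measured genes. On the scale with 1 added to each FPKM, 0 were 1.5-fold apart in either direction. LIN9 was at 3.07 FPKM in shRON and 5.07 in shNT, a log2 ratio of -0.58 on that scale and an FPKM ratio of 0.606. TFDP1 was at 27.9 FPKM in shRON and 41.1 in shNT (-0.54). The count of lower genes was 2 with a pseudocount of 0.1, and 1 with the most abundant transcript only or with the median of all genes set to 0. The lists were chosen with results of these libraries known, so their directions are not independent evidence.

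Among genes that act on uracil in DNA, UNG, the main uracil glycosylase, was at 30.5 FPKM in shRON and 29.0 in shNT (log2 ratio 0.07). Of 16 measured genes of uracil excision, base excision repair and lesion bypass, 3 were at least 1.5-fold higher and 1 lower, beside 9.99% higher and 8.88% lower among all measured genes. The median log2 ratio was 0.04 in the list and 0.04 over all measured genes. APEX1, which cuts the strand at the abasic site, was at 51.5 FPKM in shRON and 32.9 in shNT (0.63). The polymerase gene POLB was at 24.9 FPKM in shRON and 15.9 in shNT (0.62), and the third was LIG3. FEN1, a flap endonuclease also used in DNA replication, was at 21.5 FPKM in shRON and 37.2 in shNT (-0.77). The count of higher genes was 0 with a pseudocount of 5 and 1 when the median of all genes was set to 0.

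DUT, which removes dUTP from the nucleotide pool, was at 17.7 FPKM in shRON and 41.4 in shNT (log2 ratio -1.18). The FPKM ratio of 0.427 had a counting interval of 0.386 to 0.473. Of the list of free-nucleotide deaminases and dUTP or dNTP hydrolases, 4 of 5 genes were measured, with DUT lower and SAMHD1 higher by 1.5-fold. Of all measured genes, 8.88% were lower and 9.99% higher by 1.5-fold. CDA, the cytidine deaminase of the salvage pathway, stayed under 1 FPKM in both libraries.

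Relatives of APOBEC3 outside chromosome 22 were near 0. APOBEC1 and APOBEC4 were listed at 0 in both libraries, and APOBEC2 was at 0.0730 FPKM in shRON and listed at 0 in shNT. ADAR, which deaminates adenosine in double-stranded RNA and has an interferon-induced form, was at 149 FPKM in shRON and 124 in shNT (log2 ratio 0.27). Its relative ADARB1 was at 1.63 FPKM in shRON and 1.79 in shNT (-0.09).

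**Figure D3:**
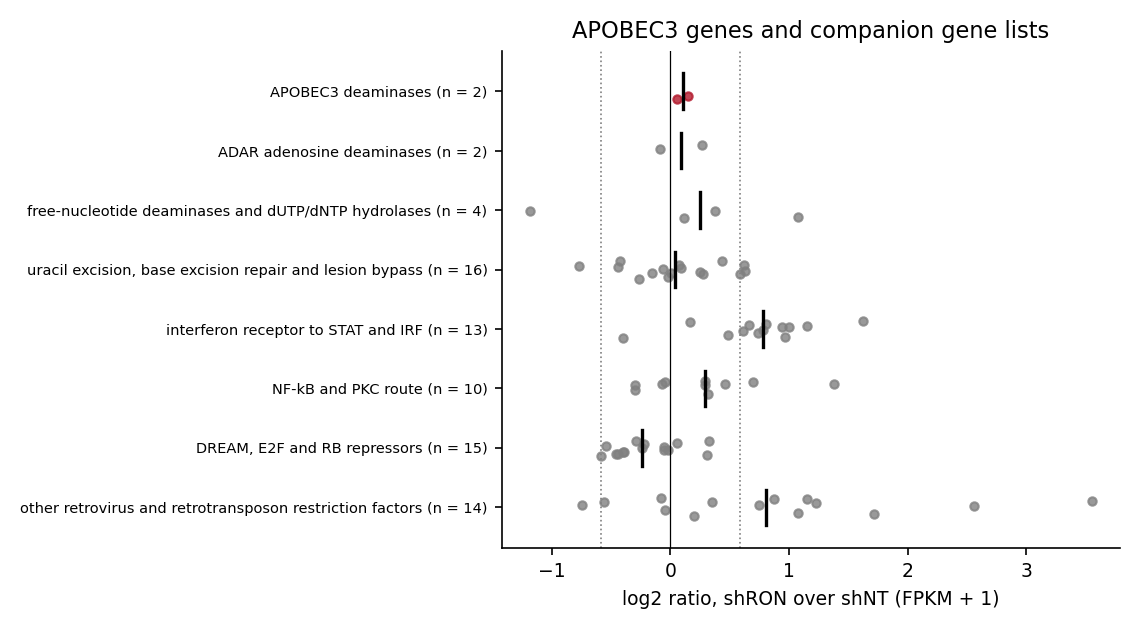
Log2 ratio of FPKM + 1, shRON over shNT, of the measured genes in each list (points), with the list median (black line), 0 (solid line) and 1.5-fold in either direction (dotted lines). The APOBEC3 genes (red) lie at 0.06 and 0.15, while the medians of the interferon route and of the restriction factors are 0.78 and 0.81.

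Leukocytes carry much of the APOBEC3 expression of a tissue. Of 19 leukocyte markers, 3 were measured, CD68, S100A8 and S100A9, which epithelial cells can also express. At least 1.5-fold higher in shRON were 2 of them, beside 9.99% of all measured genes. Both libraries listed at 0 the pan-leukocyte marker PTPRC, the T-cell genes CD3D, CD3E and CD2, and NKG7, CD79A, LYZ and TYROBP. The 19 markers summed to 159 FPKM in shRON and 80.1 in shNT, almost all of it S100A8 and S100A9. S100A8 was at 96.6 FPKM in shRON and 34.0 in shNT, and CD68 at 5.84 FPKM in shRON and 1.37 in shNT. Whether other cells had a part in the APOBEC3 values was not tested.

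The genes around the APOBEC3 cluster were compared in the same way. The APOBEC3 rows span 122 kb, and 29 other genes within 1 Mb of them were measured. For 2 of these, DDX17 and KDELR3, the shNT values of 0 carry the status FAIL and are no measurement. Of the other 27, 21 were within 1.5-fold, 5 were higher and 1 was lower, beside 9.99% higher and 8.88% lower among all measured genes. Their median log2 ratio was 0.17. CBX6, the nearest measured gene on the APOBEC3A side, was at 10.3 FPKM in shRON and 11.5 in shNT (-0.15). CBX7, the nearest on the APOBEC3H side, was at 4.23 FPKM in shRON and 3.14 in shNT (0.34). Both encode Polycomb chromobox proteins.

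The neighbour that was lower, NPTXR, a neuronal pentraxin receptor gene, stood at 0.260 FPKM in shRON and 2.85 in shNT (log2 ratio -1.61). Of the higher ones, FAM83F was at 6.33 FPKM in shRON and 2.28 in shNT (1.16). CSNK1E, a casein kinase gene, was at 34.9 FPKM in shRON and 17.4 in shNT (0.96). MAFF was at 3.23 FPKM in shRON and 1.46 in shNT (0.78), and CBY1 at 11.3 FPKM in shRON and 6.86 in shNT (0.64). LOC100506349, with 150 bases in its row, was at 31.4 FPKM in shRON and listed at 0 in shNT.

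**Figure D4:**
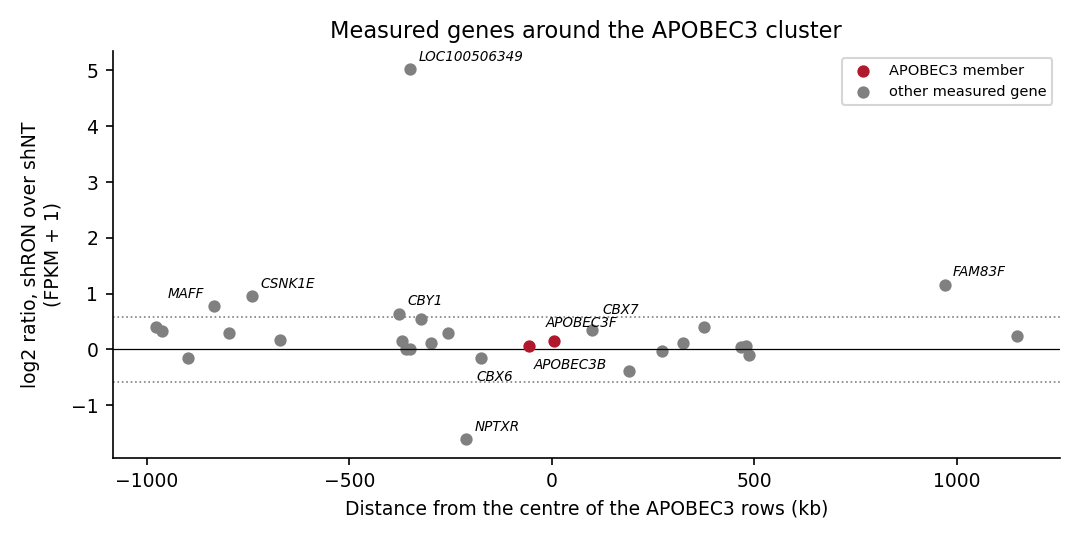
Log2 ratio of FPKM + 1, shRON over shNT, of the measured genes within 1 Mb of the APOBEC3 rows (y axis) against distance from the centre of those rows in kb (x axis). Dotted lines mark 1.5-fold; DDX17 and KDELR3, with failed shNT values, are left out. APOBEC3B and APOBEC3F (red, 0.06 and 0.15) sit near the neighbours' median of 0.17.

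Of the 7 members, 1 had an entry in the RefSeq promoter table of GRCh38.p14, APOBEC3H. Its window of 250 bases before to 50 after the start held neither the core of the interferon-stimulated response element (ISRE), nor the STAT motif TTCNNNGAA, nor the NF-kB consensus, on either strand. Of all 35116 promoters of that table, 3.57% held the first, 7.66% the second and 5.91% the third. The absence of these letters from 1 window says nothing about the factors themselves.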

How the data were processed

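RNA was sequenced from 2 libraries, 1 per group, taken from the treatment labels. The authors deposited 1 transcript table per library laid out as Cufflinks output, per the file headers, with build hg19 and the tool DESeq named, without roles, in the submitters' processing notes. Neither aligner nor Cufflinks version was given in the sources used here. The authors' FPKM values are divided by transcript length and library size, per the file headers. The deposited coverage, a signal of mean read depth, is not divided by library size, as its ratio to FPKM differs between libraries. No scaling between libraries is stated.

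From the deposited files, FPKM was summed per gene and log2 ratios were computed with a pseudocount of 1. In each library the highest ratio of coverage to FPKM was 2.0 times the lowest, read as 2 against 1 counted reads per fragment. Low products of coverage and length, between 150 and 325 bases in single-transcript genes of at least 1000 bases at the highest ratio, had a median of 249 bases in both libraries. That value, taken as the bases of 1 read pair, turned FPKM into estimated fragments. Intervals are 95% Clopper-Pearson (ratios) or exact Poisson (levels) on these rounded estimates. They are approximate, for counting error alone. The 2-fold calls and the ratio intervals were tried on simulated Poisson counts. Those counts were drawn with the same conversion of FPKM to fragments, so they cannot check that conversion. They also held no variation between libraries and no reads shared between genes. No transcript of a member had a status other than OK.

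Proteins were not used here, so similarity was computed from nucleotides with Biopython 1.88. The members and lists were chosen with earlier results of these data known. Named genes were all members, MST1R, APOBEC2, ADAR, UNG, up to 3 genes per list with the largest ratios among those at least 1.5-fold apart, the nearest measured neighbours and those 1.5-fold apart; LIG3, SERINC3, SLFN11, LIN9, TFDP1, SERINC5, CDA, ADARB1, S100A9, the leukocyte markers listed at 0 and the relatives listed at 0 were named after their values were seen. GATA3, XBP1, EPCAM, FOXA1, PRKCA, PRKCB and PRKCD were also named after their values were seen. HMCES was found under its older symbol. Some genes of the lists are not reported here by name. Python 3.11.15 with pandas 2.3.3 and scipy 1.17.1 was used.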

Additional observations from a re-analysis of the deposited data

Results flagged for a closer look

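LOC100506375 was not among the members, since its rows carry no APOBEC3 symbol, yet it lies at the annotated position of APOBEC3A. It stood at 0.419 FPKM in shRON and 0.0539 FPKM in shNT, above the control library, from an estimated 9.07 fragments in shRON and 1.06 in shNT. Counted as a member, it moved the family's ratio of summed FPKM to 1.08.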

How the results depend on the processing

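No paired analysis was possible because each group has 1 library and the labels carry no replicate numbers. Under each of 12 alternatives, 0 members were 1.5-fold higher or 2-fold apart in either direction. The log2 ratio lay between -0.11 and 0.07 for APOBEC3B and between -0.02 and 0.23 for APOBEC3F, and both were below 0 only when the neighbours' median of 0.17 was subtracted. With that subtraction the members' median was -0.07 and the ratio of summed FPKM 0.944. The other 58 of 60 summary values moved by no more than the arm of the counting interval (for counts, 1.5 times). So did 266 of 311 values of single genes, neighbours and lists. Part of the summary values could not move, so their agreement is no check. The ratio of summed FPKM uses neither the pseudocount nor the minimum, and no member transcript had a status other than OK. LOC100506375 stayed under 1 FPKM and could not enter the counts or the median. The median lay between 0.73 and 1.08 for the restriction factors, 0.58 and 0.84 for the interferon route, 0.14 and 0.32 for the NF-kB route and 0.00 and 0.24 for the neighbours. Lower genes numbered 0 to 2 for the restriction factors and for the DREAM list. Higher genes numbered 0 to 4 for uracil excision and 1 to 3 for the NF-kB route. With a minimum of 5 FPKM, APOBEC3F dropped out. Over all genes, the counts at 2-fold were 422 higher and 273 lower, against 704 higher and 492 lower when 0.1 was added to each FPKM, and 151 higher and 86 lower when 5 was added. Setting the median of all genes to 0 gave 1117 higher and 1255 lower at 1.5-fold, against 1250 higher and 1110 lower. Leaving out genes under 200 bases and counting LOC100506375 as a member were chosen after seeing the data. Depth limits the members under 1 FPKM, for which no direction can be given.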
